A study of Mus musculus with 12 samples.

Results

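The genes described here are 10 immediate-early genes of the FOS, JUN, EGR and IER families, chosen by name from the 46103 genes of the table: Fos, Fosb, Jun, Junb, Jund, Egr1, Egr2, Egr3, Ier2 and Ier3. They were listed when earlier results of these data on vehicle and imatinib libraries were known, so their levels and fold changes are given as a description, and their p-values are not independent evidence. The data were RNA-seq values of 12 libraries, each made from 100 sorted BCR-ABL1+ LSK cells (KSL in the labels: lineage-negative, Sca1+, c-Kit+) from bone marrow and spleen of mice with a chronic myeloid leukemia (CML)-like disease. In all 4 groups the leukemia came from bone marrow of 5FU-treated C57BL/6 G0M mice that carried a retrovirus with human BCR-ABL1 and GFP, transplanted into lethally irradiated wild-type mice together with supporting marrow, so BCR-ABL1 was under a viral promoter and not at its own locus. G0M is mVenus fused to p27K-, a p27 mutant that does not inhibit cyclin-dependent kinases; it lies in the Rosa26 locus and Vav1-Cre switches it on in blood cells. DP cells were G0M+CD27+ cells (CML stem cells in the labels) and SP cells G0M-CD27+ cells (progenitors), both from vehicle-treated mice, and IMDP and IMSP cells were the same populations from imatinib-treated mice, with the drug, which blocks the ABL kinase, given once a day by oral gavage. There were 3 libraries per group. The study's reporting summary gives female mice aged 6 to 12 weeks for all its experiments. The labels give neither the age of the mice nor the number of animals behind a library, and they do not say that the libraries came from separate animals, so the p-values measure the spread between these libraries only. In these sorted bulk samples, fewer cells that carry a transcript and less transcript per cell cannot be told apart.

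Immediate-early genes are transcribed within minutes of a stimulus, without new protein synthesis, when kinase cascades such as the MAP kinase chain act on factors already bound to their promoters. Serum response factor (SRF) with its ternary complex partners binds CArG boxes, and CREB binds the cyclic AMP response element (CRE). FOS and JUN proteins pair through leucine zippers to form AP-1, whereas EGR proteins are zinc-finger factors that bind GC-rich sites. BCR-ABL1 is known to signal through RAS and the MAP kinases. The transcripts are short-lived, and they are also known to be induced while tissue is dissociated and cells are sorted.

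The promoters of 4 members are shown because they carry matches to the motifs through which such genes are classically induced. RefSeq (GRCm38.p6) promoter windows were at hand for 7 of the 10 members, Fos, Fosb, Jun, Junb, Jund, Egr2 and Ier3, and each was searched on both strands over the 250 bases before the annotated start. Capitals mark the core of a CRE (TGACG or its reverse complement CGTCA), a CArG box, an EGR site (GCGNGGGCG) or a TATAAA sequence. The Fos window is chr12:85473640-85473889 (plus strand), the Fosb window chr7:19310046-19310295 (minus strand), the Junb window chr8:84978749-84978998 (minus strand) and the Egr2 window chr10:67537619-67537868 (plus strand), 1 of 5 windows of that gene.
Fos: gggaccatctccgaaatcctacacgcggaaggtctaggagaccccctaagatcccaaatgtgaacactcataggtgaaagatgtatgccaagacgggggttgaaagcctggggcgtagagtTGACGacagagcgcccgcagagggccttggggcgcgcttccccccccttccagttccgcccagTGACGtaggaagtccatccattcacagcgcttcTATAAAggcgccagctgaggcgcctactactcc
Fosb: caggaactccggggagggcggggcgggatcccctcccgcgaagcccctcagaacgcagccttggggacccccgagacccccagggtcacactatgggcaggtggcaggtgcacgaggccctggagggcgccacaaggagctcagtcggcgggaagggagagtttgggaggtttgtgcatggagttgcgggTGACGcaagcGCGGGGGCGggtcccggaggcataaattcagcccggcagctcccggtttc
Junb: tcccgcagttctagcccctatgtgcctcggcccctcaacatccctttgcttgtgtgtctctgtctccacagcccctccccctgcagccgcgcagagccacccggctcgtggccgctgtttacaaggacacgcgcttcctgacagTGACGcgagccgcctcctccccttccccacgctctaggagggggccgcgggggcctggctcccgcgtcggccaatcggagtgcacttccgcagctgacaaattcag
Egr2: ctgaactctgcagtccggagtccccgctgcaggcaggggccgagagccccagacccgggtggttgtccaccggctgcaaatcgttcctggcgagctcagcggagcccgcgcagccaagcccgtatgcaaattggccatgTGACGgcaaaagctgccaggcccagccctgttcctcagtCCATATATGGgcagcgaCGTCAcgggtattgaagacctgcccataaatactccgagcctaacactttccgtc

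The CRE core was present in 4 of the 7 members with a window, the 4 shown, and in 17.8% of all 32851 promoter windows. A member was counted if any of its windows matched, whereas the shares of all windows are per single window. In Egr2 it flanked the CArG box CCATATATGG, 72 to 63 bases before the start, and a different start of Egr2 (chr10:67537316-67537565) had the CArG box CCTTTTTTGG at the same distance. CArG boxes were in 1.47% of all windows. Fosb had an EGR site 50 to 42 bases before its start, a motif found in 4.70% of all windows. Fos had TATAAA 33 to 28 bases before its start, as did 12.4% of all windows somewhere in the 250 bases. The full CRE TGACGTCA (1.55% of all windows) and the AP-1 site TGANTCA (6.75%) matched in none of the 7 members. The Jund window (chr8:70697489-70697738) does not adjoin the GENCODE start of that gene at 70698949. Sites further than 250 bases from a start were not searched. The CRE core and TATAAA were added to the search after these sequences had been read. The CRE core is contained in the full CRE. A match is a description of the letters and was not linked to binding here.

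RPKM (reads per kilobase of gene, scaled to the mapped reads of the library) is a level per length, so levels can be set beside each other between genes. Fos was the highest of the 10 members in 9 libraries, and Egr1 in the other 3. Jund, with its numbered copies summed, was eighth in every library, and Egr2 and Egr3 held the last places. With its highest copy alone, Jund was below Egr3 in DP2 (6.55 against 9.08 RPKM), SP3 (4.98 against 5.09) and IMSP2 (2.11 against 2.27). All 10 members passed the filter of at least 1 RPKM in at least 3 libraries. Egr2 passed with exactly 3 libraries, all of them vehicle libraries, so it entered the test only through the group where it is high.

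**Figure D1:**
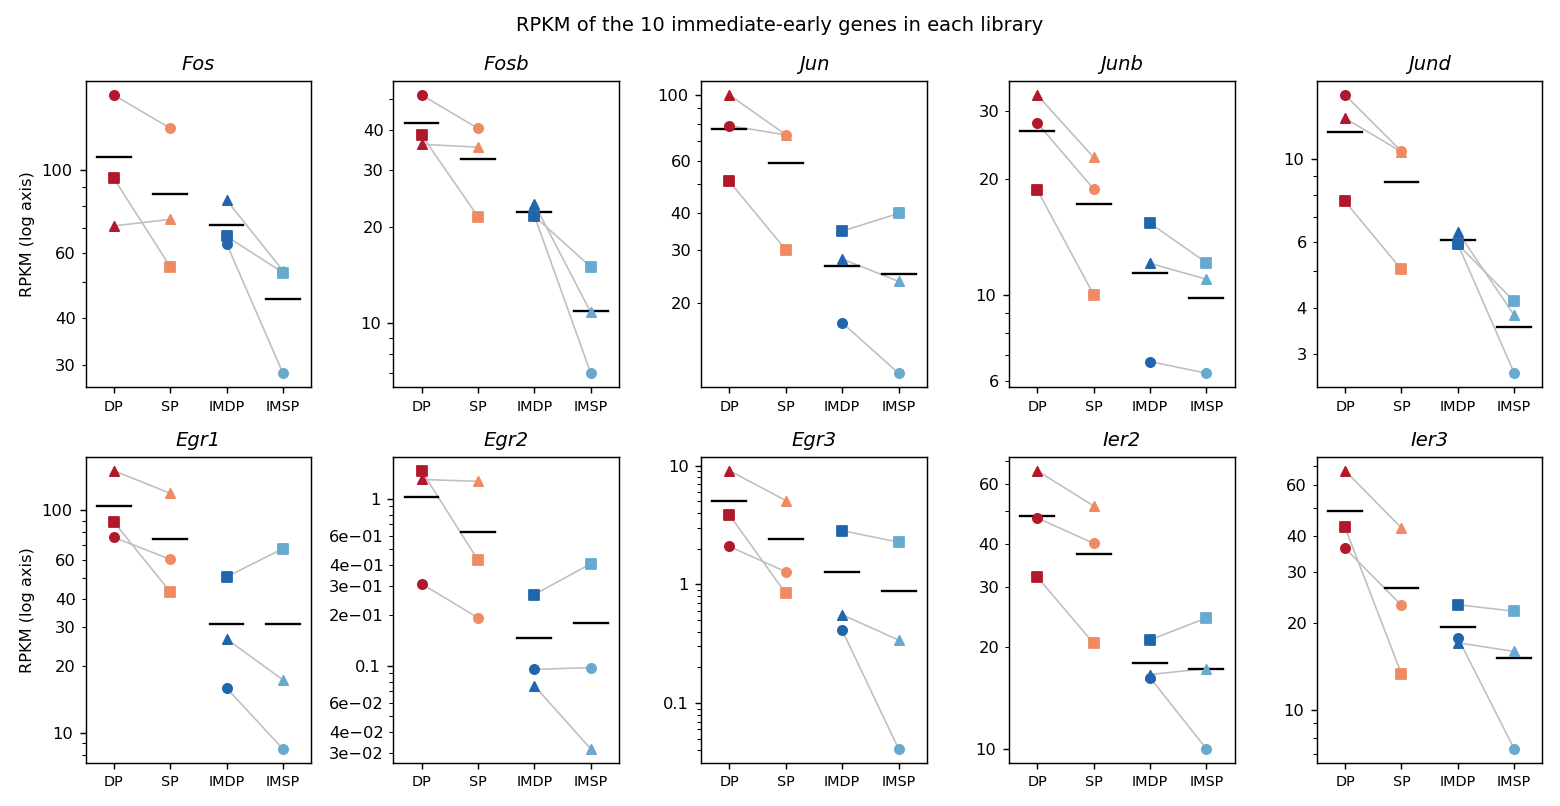
RPKM of each of the 10 genes in the 12 libraries (y axis, logarithmic, one scale per gene) by group (x axis). Points are libraries, black bars are group means (arithmetic) of 3 libraries, and grey lines join the G0M+ and G0M- libraries with neighbouring library numbers. For Fosb the IMDP libraries lie between 21.6 and 23.6 RPKM, below all DP and above all IMSP libraries.

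FOS proteins are the partners in AP-1 that need JUN for binding DNA. Fos (chr12:85473890-85477273), the founding member, was at 95.2, 70.9 and 159 RPKM in the DP libraries (replicates 1 to 3) and at 130, 55.2 and 73.8 RPKM in the SP libraries. Under imatinib it was at 63.6, 66.5 and 83.2 RPKM in IMDP and at 28.5, 53.1 and 53.8 RPKM in IMSP. The vehicle populations overlapped, whereas every IMDP library was above every IMSP library, and every IMSP library was below every SP library by a narrow margin. Fosb (chr7:19302696-19310051) was at 38.6, 36.1 and 51.4 RPKM in DP and at 40.5, 21.5 and 35.4 RPKM in SP. It was at 21.7, 21.6 and 23.6 RPKM in IMDP and at 6.99, 15.0 and 10.8 RPKM in IMSP. DP and SP overlapped for Fosb, but the imatinib libraries of each population lay below the vehicle libraries of that population, and the 2 imatinib populations did not overlap. Fosb rested on 486 to 3296 reads per library.

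JUN proteins pair with FOS proteins and also with each other. Jun (chr4:95049034-95052222) was at 51.1, 99.9 and 78.7 RPKM in DP, at 73.3, 30.1 and 73.4 RPKM in SP, at 17.1, 34.8 and 28.1 RPKM in IMDP and at 11.6, 39.9 and 23.6 RPKM in IMSP. All IMDP libraries were below all DP libraries, while IMSP and SP overlapped because IMSP2 exceeded SP2. Junb (chr8:84974484-84978718), which is known to act against JUN at many targets, had means of 26.6 ± 7.24 (DP), 17.2 ± 6.53 (SP), 11.4 ± 4.37 (IMDP) and 9.81 ± 3.11 RPKM (IMSP; SD, n = 3 each). Jund (chr8:70698949-70700616), the JUN protein that is usually present at a steadier level, was at 7.70, 12.9 and 14.8 RPKM in DP, at 10.5, 5.06 and 10.5 RPKM in SP, at 5.92, 5.91 and 6.38 RPKM in IMDP and at 2.67, 4.16 and 3.81 RPKM in IMSP. Its order across the groups was that of Fosb: IMDP lay below DP and above IMSP without overlap, and IMSP lay below SP. Jund was listed in 2 numbered copies of nearly equal value, which were summed.

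EGR proteins carry growth-factor and antigen-receptor signals to transcription, and EGR1 is known to restrain cycling of blood stem cells. Egr1 was at 89.0, 151 and 75.8 RPKM in DP and at 60.4, 43.2 and 120 RPKM in SP. Under imatinib it was at 16.0, 50.3 and 26.5 RPKM in IMDP and at 8.50, 67.4 and 17.4 RPKM in IMSP. IMDP lay below DP without overlap, and IMSP2 stood above the other IMSP libraries and above SP1 and SP2. Egr3 (chr14:70077203-70082614) showed the widest spread of the 10, from 0.0412 RPKM in IMSP1, where it rested on 3 reads, to 9.08 RPKM in DP2, with 589 reads. Its levels were 3.85, 9.08 and 2.09 RPKM in DP, 1.28, 0.839 and 5.09 RPKM in SP, 0.411, 2.84 and 0.555 RPKM in IMDP and 0.0412, 2.27 and 0.340 RPKM in IMSP. Egr3 followed Egr1, with the same library highest in each group. Egr2 (chr10:67535475-67542188) was low throughout, between 0.0317 and 1.47 RPKM, and its 4 lowest values were in imatinib libraries.

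IER2 is a small nuclear protein, and IER3 is a stress-induced regulator of survival and of NF-κB signaling. Ier2 (chr8:84661331-84662852) was at 32.0, 65.7 and 47.7 RPKM in DP, at 40.2, 20.5 and 51.8 RPKM in SP, at 16.2, 20.9 and 16.6 RPKM in IMDP and at 10.0, 24.3 and 17.3 RPKM in IMSP. Ier3 (chr17:35821684-35822923) was at 42.9, 67.5 and 36.3 RPKM in DP, at 23.0, 13.3 and 42.7 RPKM in SP, at 17.8, 23.1 and 17.1 RPKM in IMDP and at 7.31, 22.0 and 15.9 RPKM in IMSP. For both genes IMDP lay below DP without overlap, and the other neighbouring groups overlapped. Across the 10 members, IMSP1 was the lowest of all 12 libraries for 9 genes, all but Egr2, and DP2 was the highest for 6.

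The libraries carry running numbers in the labels, 1 to 6 for imatinib and 7 to 12 for vehicle, so treatment and library number cannot be told apart. Within a treatment, each G0M+ library has a G0M- library with the neighbouring number, and over all genes tested the deviations from the group means of such neighbours correlated, with r between 0.43 and 0.65. Total depth ran from 11.4 to 20.6 M reads (M, mega), of which 25.9% to 37.1% fell on the listed genes. As a check of the sort, Mki67, a marker of cycling cells, was at 14.7 ± 5.70 RPKM in DP and 54.2 ± 3.42 in SP, and at 8.16 ± 1.67 in IMDP and 61.1 ± 8.39 in IMSP (SD, n = 3 each). Cd27 (12.2 to 21.4 RPKM) and Kit (16.8 to 39.8 RPKM) were present in every library. Ly6a, which encodes Sca1, ranged from 3.12 to 20.8 RPKM. Cdkn1b, the gene of p27, was at similar levels in all groups (means of 6.66 to 8.02 RPKM). Whether reads of the G0M transgene, which encodes a p27 mutant, were counted as Cdkn1b was not tested.

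The comparison of stem cells with progenitors in vehicle-treated mice found higher mean levels of all 10 members in DP, but no member passed the test. Fitted differences on the log2(RPKM + 0.1) scale ran from 0.34 for Fos to 1.19 for Egr3, with a median of 0.52 against -0.02 over all genes tested. On leaving out single libraries, the median of the members ran from 0.19 (without SP2) to 0.80 (without SP3). Ier3, with a 2.00-fold higher level in DP (log2 difference 1.00 ± 0.44 SE), was nearest, at an adjusted p of 0.361 (limma, Benjamini-Hochberg over 10072 genes). Over all genes 2.26% were called, and 0.288% were called higher. Of the members, 1 reached an unadjusted p under 0.05, and none was called by limma-voom on the recovered reads. With the pairs of neighbouring library numbers as a block, 2 members rose in DP, Junb (adjusted p = 0.0090) and Ier3 (adjusted p = 0.042), where 4.17% of all genes were called higher.

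The same comparison under imatinib found Fosb higher in IMDP, by 2.12-fold (log2 difference 1.09 ± 0.28 SE, adjusted p = 0.017, limma). It was the only member called, where 25.6% of all genes were called but only 2.37% were called higher. Jund (0.78 ± 0.30, adjusted p = 0.075) and Fos (0.70 ± 0.36, adjusted p = 0.16) missed the threshold, although both groups of libraries were separate for these genes. In all, 3 members, Fos, Fosb and Jund, were without overlap and higher in IMDP, beside 6.21% of all genes. The other 7 members differed by -0.02 (Egr2) to 0.91 (Egr3), and for Jun, Junb and Ier2 the difference was at most 0.20. The median of the members was 0.42, whereas that of all genes was -0.25. On leaving out single libraries, the median of the members ran from -0.07 (without IMSP1, all genes -0.22) to 0.83 (without IMSP2, all genes -0.23). The Fosb call rested on single libraries: without IMDP3 its adjusted p was 0.052, and without IMSP1, the library with the lowest level, it was 0.075. With neighbouring libraries as a block, Fos (adjusted p = 0.012), Fosb (0.0029) and Jund (0.0024) were called in limma, where 8.22% of all genes were called higher.

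**Figure D2:**
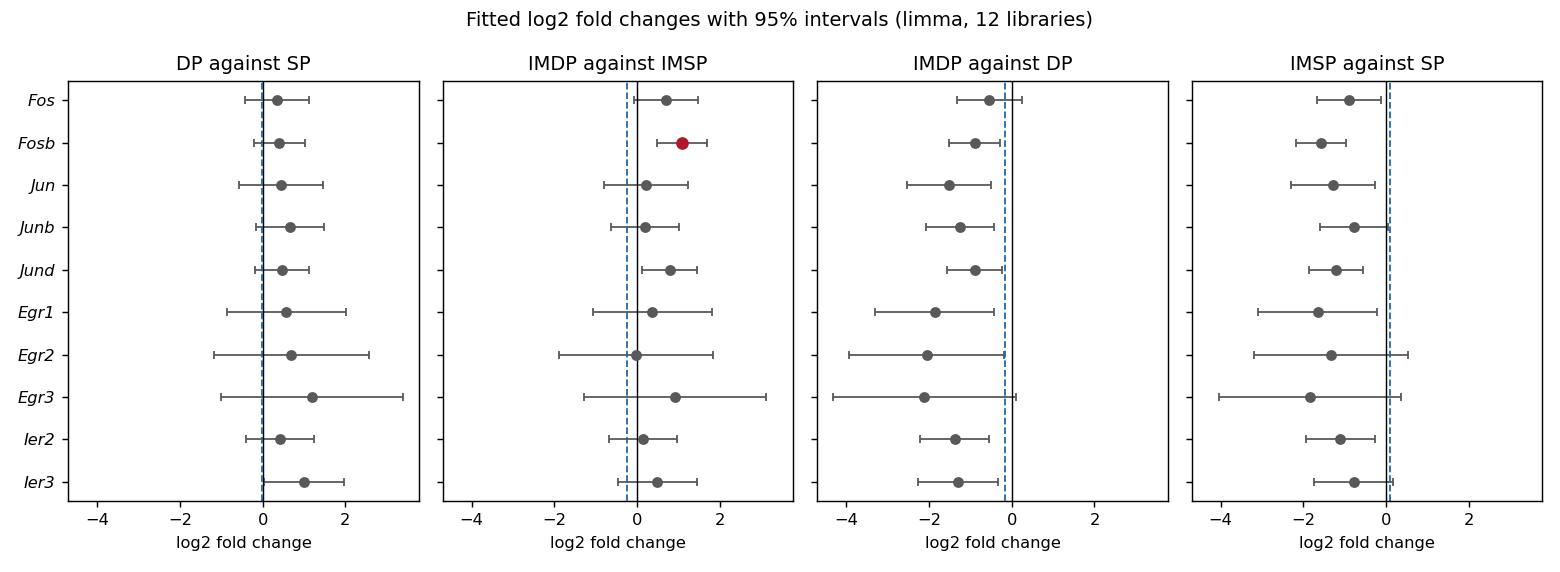
Fitted log2 fold changes (x axis) with 95% intervals for the 10 genes (y axis) in the 4 comparisons of 2 groups. A red point is a call at an adjusted p under 0.05, the black line is 0 and the blue dashed line is the median of all genes tested. All 10 estimates lie right of 0 in DP against SP and left of 0 in both imatinib comparisons, and Fosb is the only red point.

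Averaged over both treatments, all 10 members were higher in G0M+ than in G0M- libraries, and Fosb and Jund passed the test. The log2 difference was 0.75 ± 0.20 (SE) for Fosb (adjusted p = 0.018, limma) and 0.62 ± 0.21 for Jund (adjusted p = 0.049), where 26.3% of all genes were called and 5.32% were called higher. Ier3 was close in size (0.74 ± 0.31) with an adjusted p of 0.094. Both calls were lost without DP3, where Fosb had an adjusted p of 0.051, and the Jund call was lost on leaving out any of 8 libraries. Without SP3 or without IMSP2 there were 3 members called. With neighbouring libraries as a block, 8 members were called higher, all but Egr2 (adjusted p = 0.49) and Ier2 (adjusted p = 0.081), where 46.9% of all genes were called and 13.4% were called higher.

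Fosb, Junb, Jund, Egr3 and Ier3 were higher in the G0M+ library in 6 of 6 pairs, which held for 11.3% of all genes. Fos, Jun and Egr1 were higher in 5 pairs, and Egr2 and Ier2 in 4. In the pairs DP3 with SP1 and DP1 with SP2 all 10 members were higher in the DP library, and in the pair IMDP2 with IMSP2 only 6 were. The median fold of the members ran from 1.14 in that pair to 2.01 in IMDP1 with IMSP1, whereas the median fold of all genes ran from 0.762 to 1.01 over the 6 pairs.

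**Figure D3:**
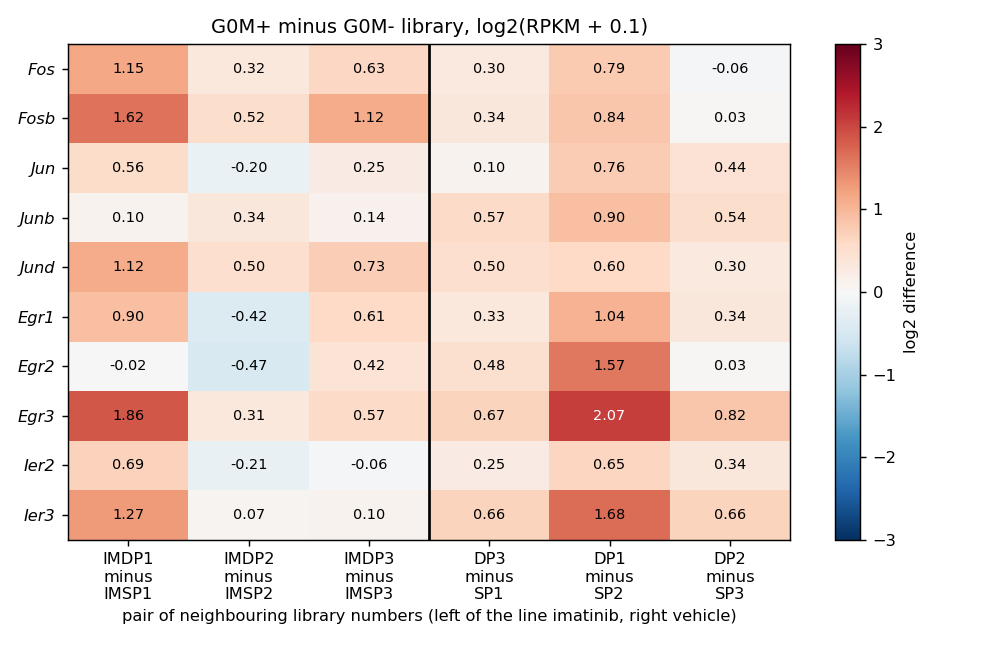
Difference in log2(RPKM + 0.1), G0M+ minus G0M- library, for each gene (rows) in each of the 6 pairs of neighbouring library numbers (columns). Red is higher in the G0M+ library, and the line parts imatinib from vehicle pairs. The rows of Fosb, Junb, Jund, Egr3 and Ier3 are above 0 in all 6 pairs.

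The difference between populations was not shown to depend on the treatment for any member. No member was called for the interaction in limma, none reached an unadjusted p under 0.05 and none was called by limma-voom, and over all genes 0% were called, with 937 at an unadjusted p under 0.05. With neighbouring libraries as a block, 2 members, Junb and Fosb, had an unadjusted p under 0.05 in limma, as did 2215 of all genes, and again none was called. Fosb had an interaction of 0.68 (95% interval -0.18 to 1.54) and Egr2 one of -0.72 (-3.36 to 1.92), so sizable differences in either direction were not resolved with 3 libraries per group.

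The comparison of imatinib with vehicle in stem cells found lower means of all 10 members in IMDP than in DP. Fitted log2 differences ran from -0.54 for Fos to -2.11 for Egr3, with a median of -1.34 against -0.17 over all genes. No member passed the test in limma, the lowest adjusted p being 0.0996 for Ier2 (-1.38 ± 0.38 SE), where 0.367% of all genes were called. By unadjusted p under 0.05, 8 members and 2061 of all genes were counted, and limma-voom called none of the members. There were 8 members, all but Fos and Egr3, whose IMDP libraries lay below all DP libraries, beside 19% of all genes. The 8 include Egr2, which passed the filter only through vehicle libraries, so its lower level under imatinib was favoured in advance. The same holds for Egr2 in the other imatinib comparisons.

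In progenitors all 10 members were also lower on average in IMSP than in SP. The log2 differences ran from -0.78 for Junb and Ier3 to -1.84 for Egr3, with a median of -1.25 against 0.08 over all genes. No gene of the table was called in limma (0% of genes, 845 at an unadjusted p under 0.05), and limma-voom called none either. Among the members 6 had an unadjusted p under 0.05, and Fosb had the lowest adjusted p of them, 0.234, with a difference of -1.58 ± 0.28 (SE). Fos, Fosb and Jund were the 3 members without overlap, lower in IMSP, beside 2.72% of all genes. The population contrasts and the imatinib contrasts share their libraries and are not independent.

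Averaged over both populations, imatinib libraries had lower levels of all 10 members, by 0.72 (Fos) to 1.97 (Egr3) on the log2 scale, with a median of -1.24 against -0.05 over all genes. Fosb fell by 1.24 ± 0.20 (SE, adjusted p = 0.021, limma) and Jund by 1.06 ± 0.21 (adjusted p = 0.047), where 0.854% of all genes were called and 0.606% were called lower. Ier2 (-1.25 ± 0.27, adjusted p = 0.055) and Jun (-1.41 ± 0.33, adjusted p = 0.063) missed the threshold. All 10 members had an unadjusted p under 0.05, as did 1811 of all genes. The 10 include Egr2, which passed the filter only through vehicle libraries. For no member (0 of 10) did the 6 imatinib libraries lie wholly below the 6 vehicle libraries, beside 0.635% of all genes, and SP2 was the vehicle library with the lowest level of every member but Egr2. Both calls were lost in turn without DP2, SP1, SP3 or IMDP3, with adjusted p values for Fosb of 0.053, 0.052, 0.065 and 0.063. The Jund call alone was also lost without DP3, IMDP1, IMDP2, IMSP1 or IMSP3. Without SP2, 4 members were called (Fosb, Ier2, Jun and Jund), and without IMSP2, 5 were (those and Egr1).

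The members did not move as a block, as ratios of their levels show. The ratio of Egr1 to Fos was 0.935 in DP1 and 0.783 in its neighbour SP2, 2.13 in DP2 and 1.62 in SP3, and 0.476 in DP3 and 0.466 in SP1. Under imatinib it was 0.251 in IMDP1 and 0.298 in IMSP1, 0.757 in IMDP2 and 1.27 in IMSP2, and 0.318 in IMDP3 and 0.323 in IMSP3. In each treatment 1 pair, DP2 with SP3 and IMDP2 with IMSP2, had ratios above those of the other pairs, and the groups overlapped. The members of a pair were close in 5 pairs and further apart in IMDP2 with IMSP2. The sum of Fos and Fosb over the sum of Jun, Junb and Jund was 1.72, 0.734 and 1.73 (DP), 1.66, 1.70 and 1.02 (SP), 2.86, 1.57 and 2.29 (IMDP) and 1.73, 1.21 and 1.68 (IMSP). FOS-family transcripts thus exceeded JUN-family transcripts per length in all libraries but DP2. Fos made up 66.3% to 75.6% of the Fos and Fosb sum in DP and 67.6% to 76.2% in SP. Its share was 74.6% to 77.9% in IMDP and 78.0% to 83.3% in IMSP. Across the 12 libraries and on the log2 scale, the closest pair of members was Jun and Ier2 (r = 0.977) and the most distant Fos and Egr2 (r = 0.248), a description over points that share treatment, pair and depth.

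**Figure D4:**
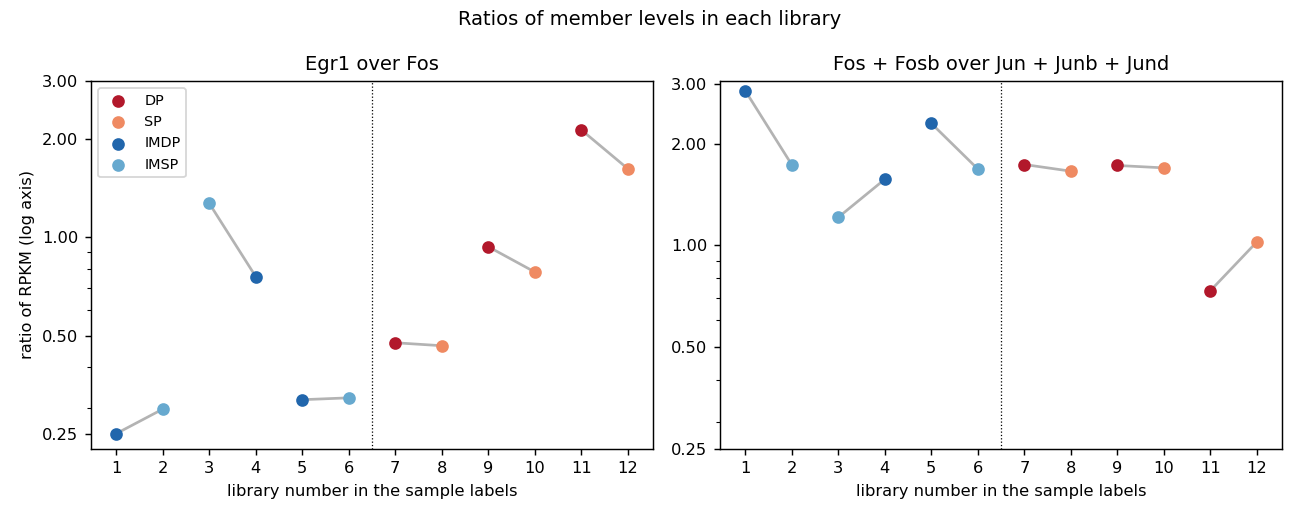
Ratio of Egr1 to Fos RPKM (left) and of summed Fos and Fosb to summed Jun, Junb and Jund RPKM (right), logarithmic y axes, against the library number in the labels. Colours are groups, grey lines join neighbouring libraries and the dotted line parts imatinib (1 to 6) from vehicle (7 to 12). Egr1 over Fos runs from 0.251 to 2.13, and is highest in the pairs DP2 with SP3 and IMDP2 with IMSP2.

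Genes related to the members were counted from lists that were also chosen with earlier results known. Of 10 other AP-1 family genes 9 were tested. Fosl2, a FOS relative, was higher in G0M+ libraries (log2 difference 0.78 ± 0.26 SE, adjusted p = 0.044, limma), with means of 12.8 ± 4.50 (DP), 5.63 ± 2.34 (SP), 4.37 ± 0.80 (IMDP) and 3.48 ± 1.07 RPKM (IMSP; SD, n = 3 each). Fosl1, the other FOS relative, had an adjusted p of 0.039 for imatinib (limma), a call lost on leaving out any of 9 libraries: it was at 1.09, 1.84 and 1.35 RPKM in DP, 0.342, 0.380 and 1.18 RPKM in SP, 0.0454, 0.237 and 0.173 RPKM in IMDP, and listed at 0 in all IMSP libraries. Fosl1 reached 1 RPKM in vehicle libraries alone, so it entered the test only through the group where it is high and had to differ. The Fosl2 call was lost on leaving out any of 7 libraries, with adjusted p values of up to 0.108. The EGR corepressors Nab1 and Nab2, the tested 2 of 3 EGR partners, were not called in any contrast. Nab2 differed by 0.60 (DP against SP) and -0.03 (imatinib against vehicle).

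Of 22 other immediate-early genes 19 were tested. All 19 were above 0 in DP against SP and below 0 in IMDP against DP, with medians of 0.50 and -1.18. The medians of all genes were -0.02 and -0.17. In IMSP against SP and in the imatinib contrast 18 were below 0, in G0M+ against G0M- 17 were above 0, and in IMDP against IMSP 13 were above and 6 below 0. In the imatinib contrast the median was -1.14, against -0.05 over all genes, and 3 were called lower, beside 0.606% of all genes. They were Cd69, an early activation antigen (-1.86 ± 0.17 SE, adjusted p = 0.0014, limma), Rhob, a short-lived small GTPase (-1.17 ± 0.13, adjusted p = 0.0036), and Nr4a3, an orphan nuclear receptor (-2.54 ± 0.41, adjusted p = 0.021). Nr4a3 was at or above 1 RPKM in the vehicle libraries alone, so it too passed the filter only through the group where it is high, and its call was lost without DP2, SP1, SP3 or IMDP3 (adjusted p of up to 0.076). The Cd69 and Rhob calls held on leaving out each library. Cd69 was at 56.2, 76.2 and 54.0 RPKM in DP and at 18.2, 12.1 and 10.2 RPKM in IMDP, and at 44.6, 35.8 and 52.3 RPKM in SP and at 12.9, 19.7 and 14.5 RPKM in IMSP. Every imatinib library was below every vehicle library for Cd69, which held for 0.635% of all genes and for none of the 10 members. Cd69 (adjusted p = 0.0086, limma) and Rhob (adjusted p = 0.027) were also the 2 called in IMDP against DP, where 0.367% of all genes were called. There the Cd69 call was lost without IMDP3 (adjusted p = 0.064) and the Rhob call without DP1, DP2, SP1 or IMDP3 (up to 0.083), and over all genes the count of 37 ran from 0 without IMDP3 to 189 without IMDP1. In this list none was called in the other contrasts of 2 groups.

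Transcripts of the signaling chain that acts on these genes were counted in the same way, beside the 21% of all genes called lower in G0M+ libraries and the 23.3% called lower in IMDP against IMSP. Of 9 tested genes of SRF, its ternary complex partners and CREB, Srf itself was lower in G0M+ libraries (-0.65 ± 0.13 SE, adjusted p = 0.0052, limma), as were Atf1 (-0.61 ± 0.11) and Creb1 (-0.51 ± 0.12), with the same 3 called in IMDP against IMSP, where the Srf call was lost without IMSP1 (adjusted p = 0.053) and the Creb1 call on leaving out any of 10 libraries. Elk3, a ternary complex factor that can repress, was higher in G0M+ libraries (0.39 ± 0.11, adjusted p = 0.021) and higher under imatinib (0.69 ± 0.11, adjusted p = 0.020), each call being lost on leaving out any of 3 libraries (adjusted p of up to 0.060 and 0.066). All 18 genes of the MAP kinase chain were tested, and none was called for imatinib. In G0M+ libraries Mapkapk2 (-0.80 ± 0.15, adjusted p = 0.0040) and Hras (-0.56 ± 0.17, adjusted p = 0.032) were among the genes called lower, and the Hras call was lost on leaving out any of 7 libraries. The medians of the MAP kinase list, -0.19 in G0M+ against G0M- and -0.10 for imatinib, were close to those of all genes, -0.13 and -0.05.

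**Figure D5:**
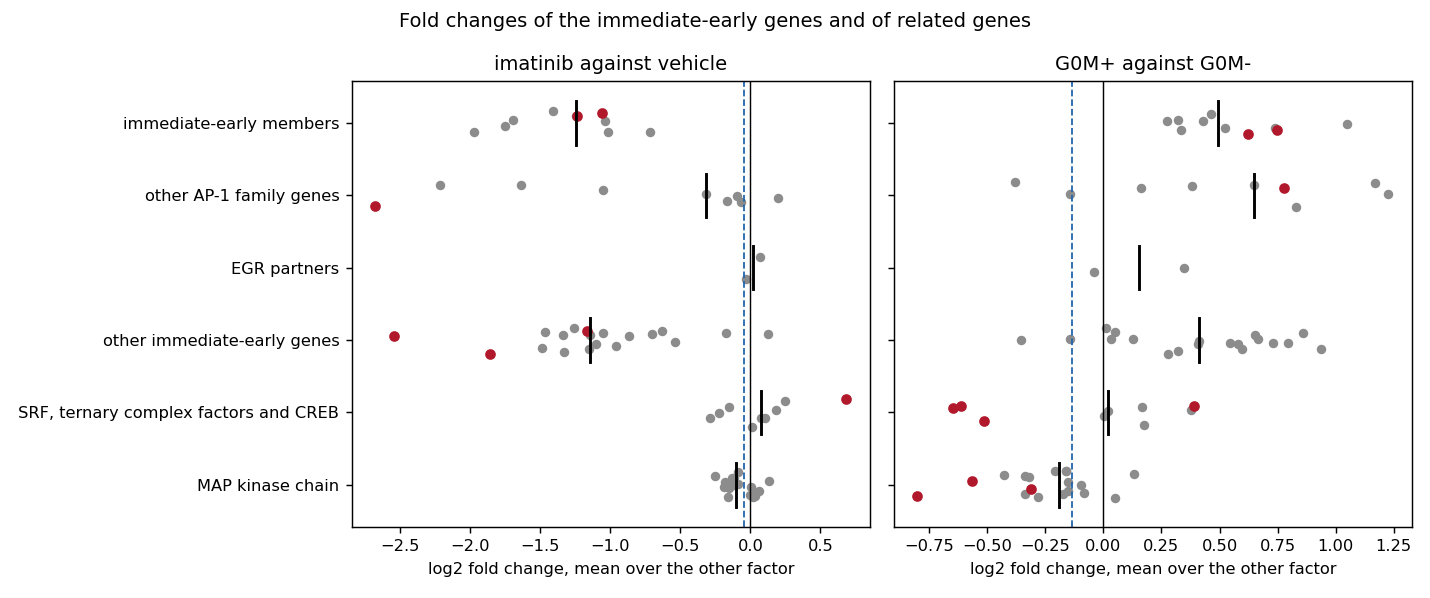
Log2 fold changes (x axis) of the 10 members and of the related genes tested, by list (y axis), for imatinib against vehicle (left) and G0M+ against G0M- (right). Red points are calls at an adjusted p under 0.05, black bars are list medians and the blue dashed line is the median of all genes. The medians of the members (-1.24) and of the other immediate-early genes (-1.14) lie left in the imatinib panel, and the MAP kinase chain lies near 0.

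The genes outside these lists with a profile most like the mean standardised profile of the members over the 12 libraries were Tnfaip3 (r = 0.986), Nfkbid (0.975), Dusp16 (0.970), Map1lc3a (0.964) and Skil (0.960), with Spearman correlations of 0.909 to 0.993. Tnfaip3, which encodes the NF-κB feedback inhibitor A20, had means of 58.1 (DP), 36.6 (SP), 13.7 (IMDP) and 9.93 RPKM (IMSP). These values describe likeness over libraries that share treatment and depth, and the genes were picked for it.

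Markers of other cells also differed between the groups, and their part in the values above was not tested. The summed RPKM of 8 mast cell and basophil markers was 62.4 to 279 in DP and 7.31 to 15.0 in SP, and 13.1 to 180 in IMDP and 5.59 to 18.6 in IMSP. The 8 erythroid markers summed to 207 to 267 RPKM (DP), 53.9 to 147 (SP), 56.8 to 481 (IMDP) and 9.43 to 71.6 (IMSP). The 8 neutrophil and monocyte markers summed to 70.4 to 1083 RPKM (DP), 305 to 2021 (SP), 86.6 to 240 (IMDP) and 407 to 1643 (IMSP). The 7 macrophage markers summed to 5.09 to 15.5 RPKM (DP), 3.25 to 8.67 (SP), 17.1 to 19.6 (IMDP) and 6.71 to 37.6 (IMSP). The 5 endothelial markers summed to 10.4 to 19.2 over all libraries, the 6 B cell markers to 1.38 to 4.13 and the 6 T cell markers to at most 2.94. The B cell genes Ms4a1, Ighm and Pax5 and the T cell gene Trbc1 were listed at 0 in all 12 libraries. The 6 lineage markers removed by the sort summed to 0.890 to 4.80.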

How the data were processed

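RNA of 100 sorted cells per library was sequenced, and the authors deposited RPKM values per gene for each of the 12 libraries, on GRCm38 (mm10). The study's methods name CLC Genomics Workbench and its reporting summary HISAT2 and featureCounts. edgeR is named for statistics, and it is not stated whether a further normalization is in the values. The deposited RPKM were whole reads over length for 17735 of 17735 features above 0 (tolerance 0.01 reads), which gave each library's total depth and reads. A read per kilobase was worth 0.0486 to 0.0880 RPKM. Numbered copies of a gene were summed. The test was limited to the 10072 of 46103 genes that reached 1 RPKM in 3 libraries or more. Values were tested as log2(RPKM + 0.1) with limma 3.58.1 (R 4.3.3, trend, 4 group means over 12 libraries), with Benjamini-Hochberg adjustment over all genes and a threshold of 0.05. The pseudocount understates changes of low genes. The members and all gene lists were chosen with earlier results of these data known. Named were all 10 members, up to 4 called genes per related list and contrast with the lowest adjusted p, Kit, Ly6a, Cd27, Mki67 and Cdkn1b, and the 5 most like genes. Other genes named were chosen after their values were seen. Groups and library numbers came from the labels, positions from GENCODE. Same-numbered IMDP and IMSP libraries, which are also neighbours in library number, correlated in their deviations (r = 0.43, 0.65 and 0.46), whereas same-numbered DP and SP libraries did not (-0.30 to -0.10) and their neighbours did (0.50 to 0.52), so neighbouring library numbers served as the block. The pipeline was tested on simulated data. Alternatives were no filter, a filter of 0.1 RPKM, pseudocounts of 1 and 0.01, a fit of 2 groups, both blocks, median scaling, limma-voom on recovered reads, the highest copy of a gene, and leaving out each library. The result of a gene in the kinase list is not reported here.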

Additional observations from a re-analysis of the deposited data

How the results depend on the processing

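In the main analysis 2 members were called in G0M+ against G0M-, 2 for imatinib against vehicle, 1 between IMDP and IMSP, and 0 between DP and SP, between either imatinib group and its vehicle group, and for the interaction. The cause of the changes below was not tested. G0M+ against G0M- gave 1 (Fosb) with no filter, a filter of 0.1 RPKM, a pseudocount of 1 or limma-voom. Imatinib against vehicle gave 1 (Fosb) with no filter, a filter of 0.1 RPKM, a pseudocount of 0.01, median scaling, limma-voom or the replicate block, in which Jund had an adjusted p of 0.053. The replicate block changed no other call. IMDP against IMSP gave 2 (Fosb and Jund) with median scaling or a fit of those 2 groups. With the pairs of neighbouring library numbers as a block, DP against SP gave 2, IMDP against IMSP 3 and G0M+ against G0M- 8. Leaving out 1 library gave 0 to 2 in IMDP against IMSP, 0 to 3 in G0M+ against G0M-, 0 to 5 in imatinib against vehicle and 0 in the other contrasts. With the highest copy alone Egr2 fell below the filter, which left 9 members tested. No count of members called changed, but the Jund levels moved, to 6.16 (DP), 4.25 (SP), 2.98 (IMDP) and 1.84 RPKM (IMSP).

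In IMDP against IMSP, the Egr2 difference (-0.02) became 0.14 with a pseudocount of 0.01 and 0.25 with median scaling. On leaving out single libraries it ran from -0.44 to 0.53, Jun from -0.26 to 0.63, Junb from -0.10 to 0.53, Egr1 from -0.30 to 1.18, Egr3 from -0.038 to 2.00 and Ier2 from -0.20 to 0.43. Apart from the interaction, no other member changed direction in any contrast or alternative. For the interaction 3 members were above 0 and 7 below 0 in the main analysis. Without SP2 or without IMSP2, 7 were above 0 and 3 below 0. Over all genes, IMDP against DP called 37 genes, against 0 with the 2 groups alone, 2 with median scaling and 8 with limma-voom. IMDP against IMSP called 2581, against 1553 with the 2 groups alone, 1587 with median scaling and 4446 with the library-number block. DP against SP called 228, against 980 with that block, and G0M+ against G0M- 2648, against 4721. Imatinib against vehicle called 86, against 46 with no filter and 162 with median scaling. On leaving out single libraries, imatinib against vehicle called 12 (without DP2) to 143 (without IMSP2) genes. In IMDP against IMSP the count ran from 902 (without IMSP1) to 2962 (without IMDP1). Median scaling moved the split: 647 of 1587 calls were higher in IMDP against IMSP, compared with 239 of 2581, 1131 of 2379 in G0M+ against G0M-, compared with 536 of 2648, and 66 of 162 for imatinib, compared with 25 of 86. Depth limits Egr2 and Egr3, which rested on as few as 4 and 3 reads per library.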
